A study of Homo sapiens with 33 samples.

Results

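The replication-dependent histone genes make the bulk of the histone protein that packages newly replicated DNA. They were taken here as every row of the gene count table whose name starts with HIST1, HIST2 or HIST3, the names of the gene clusters, which gave 72 of 26475 genes. By the class letters in their names, 6 encode the linker histone H1, 18 H2A, 20 H2B, 14 H3 and 14 H4, and 3 of the 72 are annotated as pseudogenes. Counts were high enough to test 45 of the 72: 4 of H1, 12 of H2A, 14 of H2B, 8 of H3 and 7 of H4. The other 27 had at most 180 counts each over all 33 libraries, and 6 of these were at 0 throughout (HIST2H4A, HIST2H4B, HIST2H3A, HIST2H3C, HIST2H2AA3 and HIST2H2AA4, which exist as near-identical copies whose reads can be lost or split in counting). Among the linker genes, HIST1H1A and HIST1H1B were not tested, with 18 and 50 counts in total.

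As background, most of these genes have no introns, lie close together in a few clusters and are transcribed mainly while DNA is being copied. Their mRNAs usually end in a short stem-loop in place of a poly(A) tail: the stem-loop-binding protein SLBP and the U7 small nuclear ribonucleoprotein direct the cut just after it, and the coactivator NPAT drives transcription at the clusters. H2A, H2B, H3 and H4 form the protein core that DNA wraps around, whereas H1 binds the DNA between cores. A few members, HIST1H1C, HIST1H2AC, HIST1H2BC, HIST1H2BD, HIST1H2BK and HIST2H2BE among them, are also known to give polyadenylated mRNA.

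The libraries came from transfected HEK293T cells, an established human embryonic kidney line from ATCC. The editor plasmid also encodes EGFP after a P2A peptide. GFP-positive cells were sorted 36 to 40 h later and their total RNA was sequenced with the TruSeq Stranded Total RNA Gold kit, which removes ribosomal RNA and does not select for poly(A), so mRNAs without a tail are kept. There were 11 groups with 3 libraries each. One group expressed GFP with no guide RNA. Its count columns are named CMV.GFP and name no editor, so it may differ from the other groups in its plasmid and GFP expression too. The other 10 combined 5 constructs with a guide RNA named HEKsite2 or RNF2: nCas9, a Cas9 nickase without a deaminase; the adenine base editors ABEmax and miniABEmax-V82G, labelled as controls for A-to-G editing; the cytosine base editor Target-AID, labelled as a control for C-to-T editing; and the dual editor SpACE. nCas9 and GFP were the negative controls, so nCas9 carried a guide and GFP did not. All groups share the cell line and the sort for GFP, and expression was transient. The labels number the libraries 1 to 3 without saying whether they came from separate cultures, so the p-values below measure the spread between these libraries, which may be technical.

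Totals per library ran from 6790209 to 11200406 counts, and the 72 histone genes took 0.860% to 1.59% of them. Scaled levels are given as CPM, the counts per 1000000 counts of the library size after TMM scaling, whose factors lay between 0.937 and 1.05. Replicates correlated at 0.987 to 0.994 on log2 CPM. Of 4 marker lists, that for HEK293T (NEFL, NEFM, INA, LIN28B, PAX2, CDH2) had no gene at 0 in any whole group, and 5 blood markers summed to at most 0.299 CPM. The HEK293T list moved with the groups, at 478 to 513 CPM in GFP, 441 to 473 CPM in nCas9, 374 to 417 CPM in Target-AID and 385 to 451 CPM in the other editors, and its part in the histone differences was not tested. The third library of GFP and the third of Target-AID with the RNF2 guide had more histone RNA than their partners in every class, least so for H4 in GFP, and results that rest on them are given without them as well. In bulk RNA, fewer cells making histone mRNA and less mRNA per cell cannot be told apart.

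The 3′ ends that set this family apart were read from the GENCODE 29 transcripts. A stem-loop that fits the 16-base pattern searched was found in 32 of the 72 members. The 16-base stem-loop, in capitals, is shown with 5 bases on each side for 6 members, to show the forms found in the core classes.
HIST1H2AG: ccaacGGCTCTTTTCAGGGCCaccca
HIST1H2BD: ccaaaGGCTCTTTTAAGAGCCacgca
HIST1H3H: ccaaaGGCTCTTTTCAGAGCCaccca
HIST1H3E: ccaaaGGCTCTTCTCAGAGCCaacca
HIST1H4B: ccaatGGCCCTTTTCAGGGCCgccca
HIST1H4H: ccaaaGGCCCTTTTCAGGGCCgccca
The commonest form, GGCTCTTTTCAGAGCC, was found in 17 members (6 of H2A, 8 of H2B and 3 of H3). All 7 H4 stem-loops that were found start with GGCCC, 4 as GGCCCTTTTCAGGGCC and 3 as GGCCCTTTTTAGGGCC, and the 25 stem-loops of the other classes start with GGCTC. The form in HIST1H3E, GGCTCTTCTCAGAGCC, was found in that gene alone. In transcript models of the other 40 members the pattern was not found. Whether a model ends before the stem-loop or holds another form was not checked, so the count says nothing of whether they have one. The forms counted also depend on the pattern.

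Upstream of the genes, short sequence elements also divided by class. Promoter windows of 300 bases (250 before to 50 after the start; RefSeq, GRCh38.p14) were matched for 59 of 72 members, and each motif was searched on both strands. ATTTGCAT, the octamer bound by POU-domain factors such as POU2F1, was present in 11 of 16 H2A and 9 of 13 H2B windows, in 1 of 12 H3 windows and in no H1 or H4 window. Of all 34943 promoters 1.77% hold it. Several H2A and H2B genes lie side by side on opposite strands with overlapping windows, such as HIST1H2AG and HIST1H2BJ, so these counts partly repeat the same DNA. The H3 match, for HIST1H3D, is in a window that is also that of HIST1H2AD, and the other window of HIST1H3D has no octamer. AAACACA was in 6 of 6 H1 windows against 5.66% of all promoters, and GGTCCG was in 11 of 12 H4 windows against 11.24%. CCAAT was in every H1, H2A, H2B and H3 window and in 3 of 12 H4 windows, against 34.65% of all promoters. To show these, the 150 bases before the start of one gene of 4 classes are printed with the class's motif in capitals; a match is a description of the letters and not a shown binding site.
HIST1H1E (H1, AAACACA; chr6:26156179-26156328, plus strand): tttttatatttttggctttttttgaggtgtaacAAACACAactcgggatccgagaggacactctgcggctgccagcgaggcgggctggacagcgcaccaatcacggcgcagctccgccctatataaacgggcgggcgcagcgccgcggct
HIST1H2BJ (H2B, ATTTGCAT; chr6:27132796-27132945, minus strand): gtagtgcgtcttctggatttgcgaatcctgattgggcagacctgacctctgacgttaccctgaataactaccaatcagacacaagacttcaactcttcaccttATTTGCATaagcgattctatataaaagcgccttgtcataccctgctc
HIST1H3B (H3, CCAAT; chr6:26032100-26032249, minus strand): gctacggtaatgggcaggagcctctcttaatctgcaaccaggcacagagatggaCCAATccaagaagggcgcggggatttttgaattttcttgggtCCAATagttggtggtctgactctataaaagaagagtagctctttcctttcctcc
HIST1H4B (H4, GGTCCG; chr6:26027284-26027433, minus strand): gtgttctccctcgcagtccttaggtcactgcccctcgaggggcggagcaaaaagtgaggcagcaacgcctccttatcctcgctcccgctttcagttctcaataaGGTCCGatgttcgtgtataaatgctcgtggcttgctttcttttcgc

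Within each class the genes differed widely in level. Levels are compared between genes per kilobase of annotated transcript (GENCODE 29) and averaged over the 33 libraries. For H1, HIST1H1C (2115 CPM per kb) and HIST1H1E (1999 CPM per kb) stood far above HIST1H1D (283 CPM per kb) and the testis gene HIST1H1T (1.80 CPM per kb). The H4 leaders were HIST1H4C (1515 CPM per kb), HIST1H4D (1110 CPM per kb) and HIST1H4B (704 CPM per kb). HIST1H3B led H3 at 1421 CPM per kb, ahead of HIST1H3A at 288 CPM per kb. The order below the top gene depends on the annotated length in both classes. HIST1H4E had a mean of 346 CPM, as did HIST1H4D, but 233 CPM per kb, with 1022 annotated bases after its stem-loop. HIST1H3H had 349 CPM against 118 CPM for HIST1H3A, but 282 CPM per kb, with 769 bases after its stem-loop. HIST1H2BK led H2B at 1305 CPM per kb, but 74.1% of its 50-base windows occur elsewhere in the transcript set, mostly in H2BFS, so its count is uncertain. HIST1H2AH led H2A at 861 CPM per kb, whereas HIST1H2AG had the most counts over an annotated transcript of 2250 bases, of which 1761 lie after the stem-loop, so this order depends on the annotated length. The members with the highest mean CPM in each class all lie on chromosome 6 (GRCh38, GENCODE 29): HIST1H1E at 26156354-26157107, HIST1H2AG at 27133042-27135291, HIST1H2BK at 27146418-27146798, HIST1H3B at 26031650-26032060 and HIST1H4C at 26103876-26104310.

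Summed over its members, H1 RNA had its highest group mean in GFP, and H4 RNA in nCas9 with HEKsite2, followed by GFP. H1 genes summed to 3776, 4175 and 4852 CPM in the 3 GFP libraries, and to 2783, 3145 and 2929 CPM in nCas9 with HEKsite2 and 2371, 3072 and 2698 CPM in nCas9 with RNF2. All 6 nCas9 libraries lay below all 3 GFP libraries. For H4 the same groups were at 2397, 2307 and 2494 CPM, at 2625, 2590 and 2402 CPM, and at 2089, 2479 and 2164 CPM, and these ranges overlap. With HEKsite2 the 12 editor libraries had H4 sums of 1492 to 2023 CPM, below every nCas9 and GFP library. With RNF2 the editors' H4 sums were 1614 to 1956 CPM apart from the third Target-AID library, which was at 2555 CPM. That library also stood apart over all members, at 15284 CPM against 10193 and 10879 CPM in its partners.

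**Figure D1:**
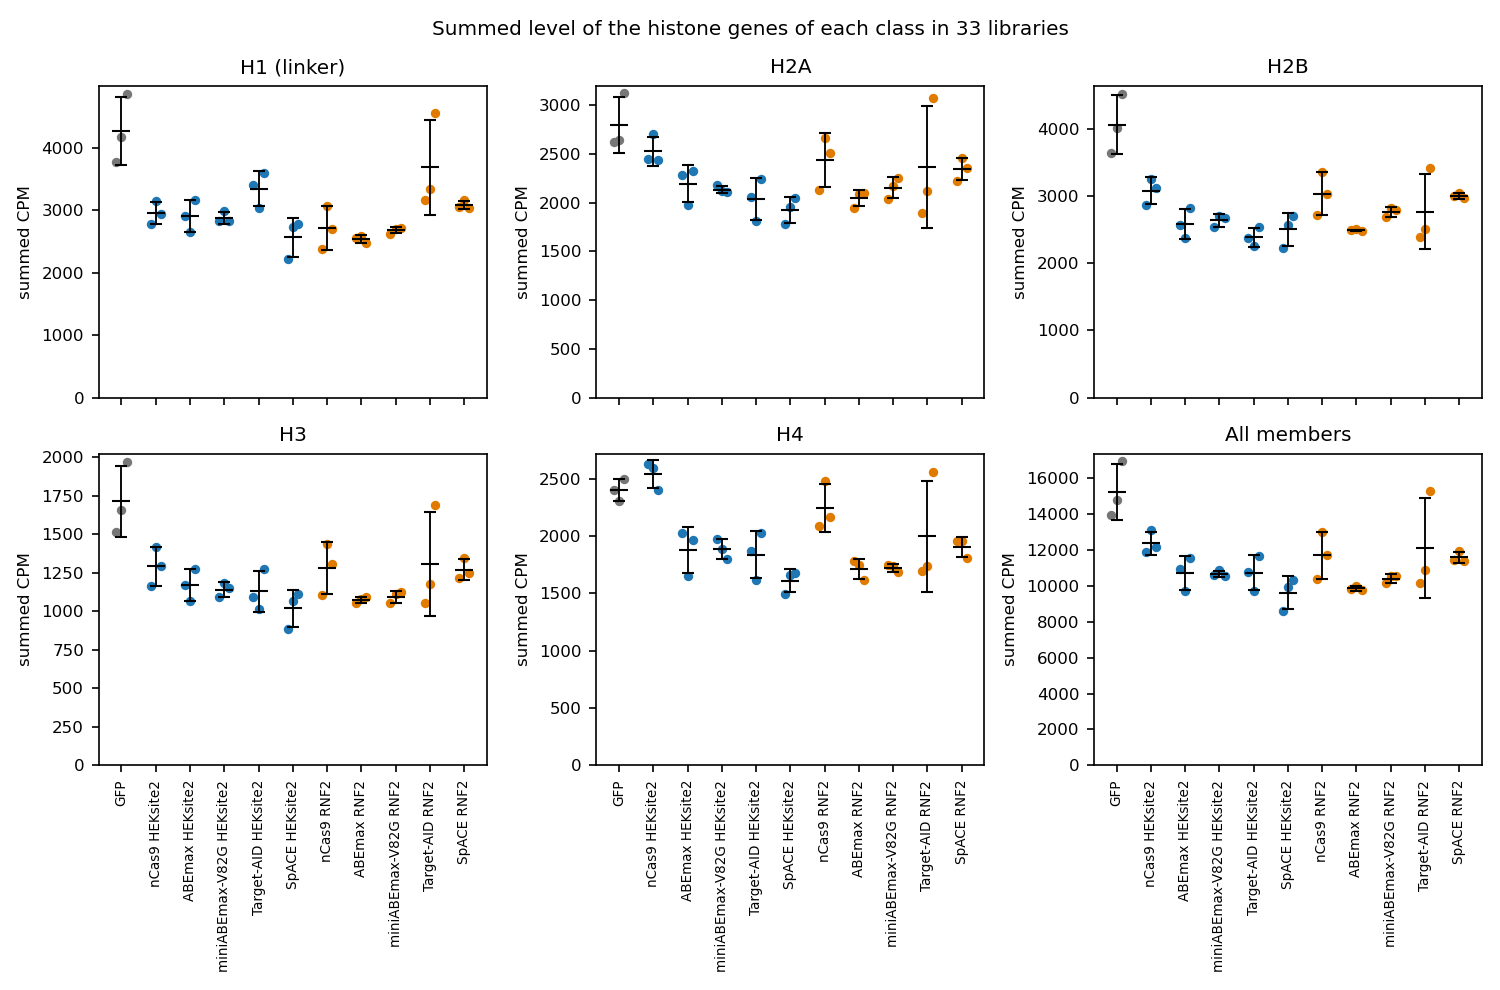
Summed CPM (y axis) of the histone genes of each class, and of all 72, in each of the 33 libraries (points) by group (x axis; grey GFP, blue HEKsite2 guide, orange RNF2 guide), with the group mean (long bar) and SD (short bars, n = 3). GFP lies above all nCas9 libraries for H1, H2B and H3, whereas for H4 nCas9 overlaps GFP and the editors with HEKsite2 lie below both; the third Target-AID RNF2 library is high in every class.

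Cells with nCas9 had less H1, H2B and H3 histone RNA than cells with GFP, while H2A and H4 differed little. The H1 sum was 30.8% lower with HEKsite2 and 36.4% lower with RNF2, the H2B sum 24.1% and 25.2% lower, and the H3 sum 24.6% and 25.1% lower, in each case with no overlap between the 3 libraries of either group. The H2A sum was 9.70% and 13.0% lower, and the H4 sum was 5.82% higher with HEKsite2 and 6.48% lower with RNF2, and those groups overlapped. These sums were not tested. By edgeR's quasi-likelihood test with Benjamini-Hochberg adjustment over 14613 genes, 24 members were lower and 3 higher with HEKsite2 (38.4% of all tested genes were called in either direction, 18.8% lower and 19.6% higher), and 25 were lower and 1 higher with RNF2 (41.5% of all genes, 20.5% lower and 21.0% higher). Both comparisons use the same GFP libraries.

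All 4 tested H1 genes fell in both comparisons, with median log2 changes of -0.55 and -0.67. HIST1H1C, a major somatic linker histone, was at 1711, 1978 and 2295 CPM in GFP, at 1158, 1340 and 1289 CPM in nCas9 with HEKsite2 and at 1029, 1352 and 1202 CPM with RNF2. Its log2 changes were -0.66 (SE 0.11, adjusted p = 3.9e-06) and -0.74 (SE 0.11, adjusted p = 4.2e-07). HIST1H1E fell by 0.45 (adjusted p = 0.00023) and 0.58 (adjusted p = 4.6e-06) on the log2 scale. Among H2B genes 11 of 14 fell with HEKsite2 and 10 with RNF2. HIST1H2BO had the largest fall of the class with HEKsite2, from 314, 350 and 389 CPM in GFP to 202, 228 and 222 CPM (log2 change -0.69, SE 0.09, adjusted p = 1.1e-07), and was at 209, 255 and 216 CPM with RNF2 (-0.63, adjusted p = 4.5e-07). In H3, 5 of 8 genes fell and 1 rose with each guide. HIST1H3F went from 53.8, 64.5 and 67.8 CPM to 32.5, 46.7 and 35.4 CPM with HEKsite2 (-0.71, adjusted p = 5.4e-06). No library of one group reached into the other for the genes given here.

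H4 stood differently: with HEKsite2 2 genes of 7 rose and 2 fell (median log2 change 0.03), and with RNF2 3 fell (median -0.16). HIST1H4C, the most abundant H4 gene, was at 756, 698 and 742 CPM in GFP and at 966, 902 and 864 CPM in nCas9 with HEKsite2 (log2 change 0.31, SE 0.10, adjusted p = 0.015). The call was lost without nCas9 library 1 (adjusted p = 0.069) or GFP library 2 (adjusted p = 0.064) and with DESeq2 (adjusted p = 0.052). With RNF2 it was at 727, 831 and 765 CPM (0.08, adjusted p = 0.57). The other H4 gene that rose, HIST1H4J, shares 81.2% of its 50-base windows with HIST1H4K, so its count is uncertain. H2A counts were also small, with 2 of 12 lower with HEKsite2 and 3 with RNF2. The third GFP library bears on these counts: without it 14 members were lower and 2 higher with HEKsite2, and 16 lower and 1 higher with RNF2. By class, without it 3 H1, 1 H2A, 7 H2B, 3 H3 and 0 H4 genes were lower with HEKsite2, with 1 H3 and 1 H4 gene higher. With RNF2 4 H1, 0 H2A, 8 H2B, 4 H3 and 0 H4 genes were lower and 1 H3 gene higher.

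Set against nCas9 with the same guide, all 4 editors with HEKsite2 had less H4 RNA, and the other core classes moved the same way by less. Every editor's H4 sum lay below every nCas9 library: by 26.1% in ABEmax, 25.7% in miniABEmax-V82G, 27.7% in Target-AID and 36.7% in SpACE. For H2A the sums were lower by 13.2%, 15.6%, 19.5% and 23.7% in the same order and for H2B by 16.0%, 14.4%, 22.6% and 18.8%, again without overlap. The H3 sums were lower by 9.42%, 11.7% and 12.5% in ABEmax, miniABEmax-V82G and Target-AID, each overlapping nCas9, and by 21.0% in SpACE without overlap. H1 differed from this: its sum was 1.62% and 2.52% lower in ABEmax and miniABEmax-V82G, 13.3% higher in Target-AID, each overlapping nCas9, and 13.0% lower in SpACE without overlap. The 4 comparisons share the 3 nCas9 libraries, so their common direction is not 4 separate observations.

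In the gene-by-gene test, ABEmax with HEKsite2 had 15 members called, all lower (15.9% of all genes called in either direction, 7.55% lower), and miniABEmax-V82G had 14, all lower (10.3% and 5.32%). Target-AID had 24 lower and 2 higher (40.6%, with 19.1% lower and 21.5% higher), and SpACE had 25, all lower (21.0% and 10.2%). One of the 2 higher calls, HIST2H2BC, was carried past the low-count filter by Target-AID alone and so had to differ. As shares of the 45 tested members, the lower calls were 33.3%, 31.1%, 53.3% and 55.6%. Among the 7 tested H4 genes, 6, 5, 6 and 7 were called lower, with median log2 changes of -0.43, -0.34, -0.40 and -0.73. The median over all 45 members was -0.26, -0.23, -0.33 and -0.38, against medians over all genes from -0.004 to 0.003. Without nCas9 library 2 the ABEmax count was 8, and without ABEmax library 2 it was 6. The miniABEmax-V82G count was 8 without its own library 1 or without nCas9 library 2, and 9 without its own library 3 or without nCas9 library 3.

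HIST1H4C showed the H4 pattern in single libraries. Against 966, 902 and 864 CPM in nCas9 it was at 743, 570 and 682 CPM in ABEmax, 684, 610 and 577 CPM in miniABEmax-V82G, 611, 519 and 644 CPM in Target-AID and 486, 540 and 545 CPM in SpACE. Every editor library was below every nCas9 library, and in SpACE the log2 change was -0.80 (SE 0.11, adjusted p = 4.4e-07). HIST1H4H, another gene for the same H4 protein, was at 277, 268 and 250 CPM in nCas9 and at 150, 165 and 175 CPM in SpACE (log2 change -0.70, SE 0.09, adjusted p = 1.3e-07). It was the one member called lower in all 8 comparisons of an editor with nCas9 over all libraries, but the call in SpACE with RNF2 (-0.25, adjusted p = 0.048) was lost in 5 of 6 fits that left out 1 library (adjusted p up to 0.26). HIST1H4B fell by 0.54, 0.54, 0.47 and 0.74 on the log2 scale in the 4 editors with HEKsite2, with adjusted p-values from 5.0e-07 to 0.00022. For both HIST1H4B and HIST1H4H, nCas9 and GFP did not differ by the test with HEKsite2 (log2 changes 0.02 and 0.03, adjusted p = 0.89 and 0.83).

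Outside H4, HIST1H2AB was the H2A gene with the largest falls with HEKsite2. It was at 129, 153 and 127 CPM in nCas9 with HEKsite2, 105, 90.9 and 111 CPM in ABEmax, 97.7, 85.8 and 94.2 CPM in miniABEmax-V82G, 84.9, 75.7 and 94.9 CPM in Target-AID and 72.6, 79.0 and 82.8 CPM in SpACE. The editor libraries lay below the nCas9 libraries in each case (log2 changes -0.41, -0.55, -0.68 and -0.80). HIST1H2AG, the H2A gene with the most counts, passed the test in SpACE alone (-0.45, SE 0.10, adjusted p = 0.00093). Among H2B genes HIST1H2BF fell in Target-AID from 48.6, 61.7 and 55.5 CPM to 34.0, 31.4 and 33.8 CPM (-0.74, SE 0.11, adjusted p = 1.1e-06). HIST1H2BK, the most abundant H2B gene, passed in Target-AID alone (-0.23, adjusted p = 0.031). The most abundant H3 gene, HIST1H3B, passed in SpACE alone, at 447, 520 and 537 CPM against 583, 677 and 632 CPM in nCas9 (-0.33, adjusted p = 0.019). HIST1H1D was the H1 gene that fell most: it was at 88.2, 144 and 145 CPM in SpACE against 224, 252 and 245 CPM in nCas9 and 246, 300 and 346 CPM in GFP. Its log2 change from nCas9 was -0.93 (SE 0.13, adjusted p = 1.3e-06), and whether it differs between editors was not tested.

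With the RNF2 guide the adenine base editors again had less H4 RNA than nCas9, and Target-AID and SpACE had fewer calls. The H4 sums of ABEmax and miniABEmax-V82G were 23.6% and 23.3% below nCas9 and that of SpACE 15.1% below, without overlap, and that of Target-AID 11.1% below with overlap. In ABEmax the H2A, H2B and H3 sums were also lower, by 16.0%, 17.9% and 16.3%, without overlap. In miniABEmax-V82G these sums were lower with overlap. In Target-AID and SpACE they lay from 8.81% below to 1.78% above nCas9, with overlap. The H1 sum was 35.8% higher in Target-AID without overlap. With overlap, it was 13.5% higher in SpACE and 6.56% and 1.25% lower in ABEmax and miniABEmax-V82G. ABEmax had 16 members called, all lower (11.2% of all genes called, 4.66% lower), miniABEmax-V82G 11, all lower (12.6% and 5.72%), Target-AID 8 lower and 4 higher (35.2%, with 15.8% lower and 19.4% higher), and SpACE 3, all lower (14.7% and 6.68%). The 4 higher calls of Target-AID again include HIST2H2BC. As shares of the 45 tested members, the lower calls were 35.6%, 24.4%, 17.8% and 6.67%, so those of Target-AID and SpACE lay near the shares of all genes. The H4 genes called lower were 6, 5, 1 and 2 of 7, and the median log2 changes over the 45 members were -0.28, -0.22, -0.12 and -0.05, against medians over all genes from -0.005 to 0. HIST1H4C was at 727, 831 and 765 CPM in nCas9, 595, 604 and 552 CPM in ABEmax, 600, 576 and 539 CPM in miniABEmax-V82G, 545, 556 and 871 CPM in Target-AID and 630, 618 and 598 CPM in SpACE. The third Target-AID library lay above the nCas9 range and the 11 others below it, and the Target-AID comparison did not pass (log2 change -0.24, adjusted p = 0.075).

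Single libraries decided several of the RNF2 counts. Without the second nCas9 RNF2 library, ABEmax and miniABEmax-V82G each had 1 member called lower, SpACE had 1 lower and 1 higher, and Target-AID had 2 lower and 4 higher. The H4 genes called lower then numbered 0, 1, 0 and 0 of 7 in ABEmax, miniABEmax-V82G, Target-AID and SpACE. The ABEmax count was 7 without its library 3. That of miniABEmax-V82G was 4, 6 and 3 without its library 1, 2 and 3, and that of SpACE was 1 without its library 2 or 3 or without nCas9 library 3. For Target-AID, leaving out its library 1 gave 1 lower and 5 higher, leaving out library 2 gave 2 lower and 5 higher, and leaving out library 3, the one with the high histone levels, gave 27 lower and 3 higher with a median log2 change of -0.31. In that last setting the lower calls were 9 of 12 H2A, 9 of 14 H2B, 4 of 8 H3 and 5 of 7 H4 genes, against 5, 10, 2 and 6 for Target-AID with HEKsite2 over all libraries.

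**Figure D2:**
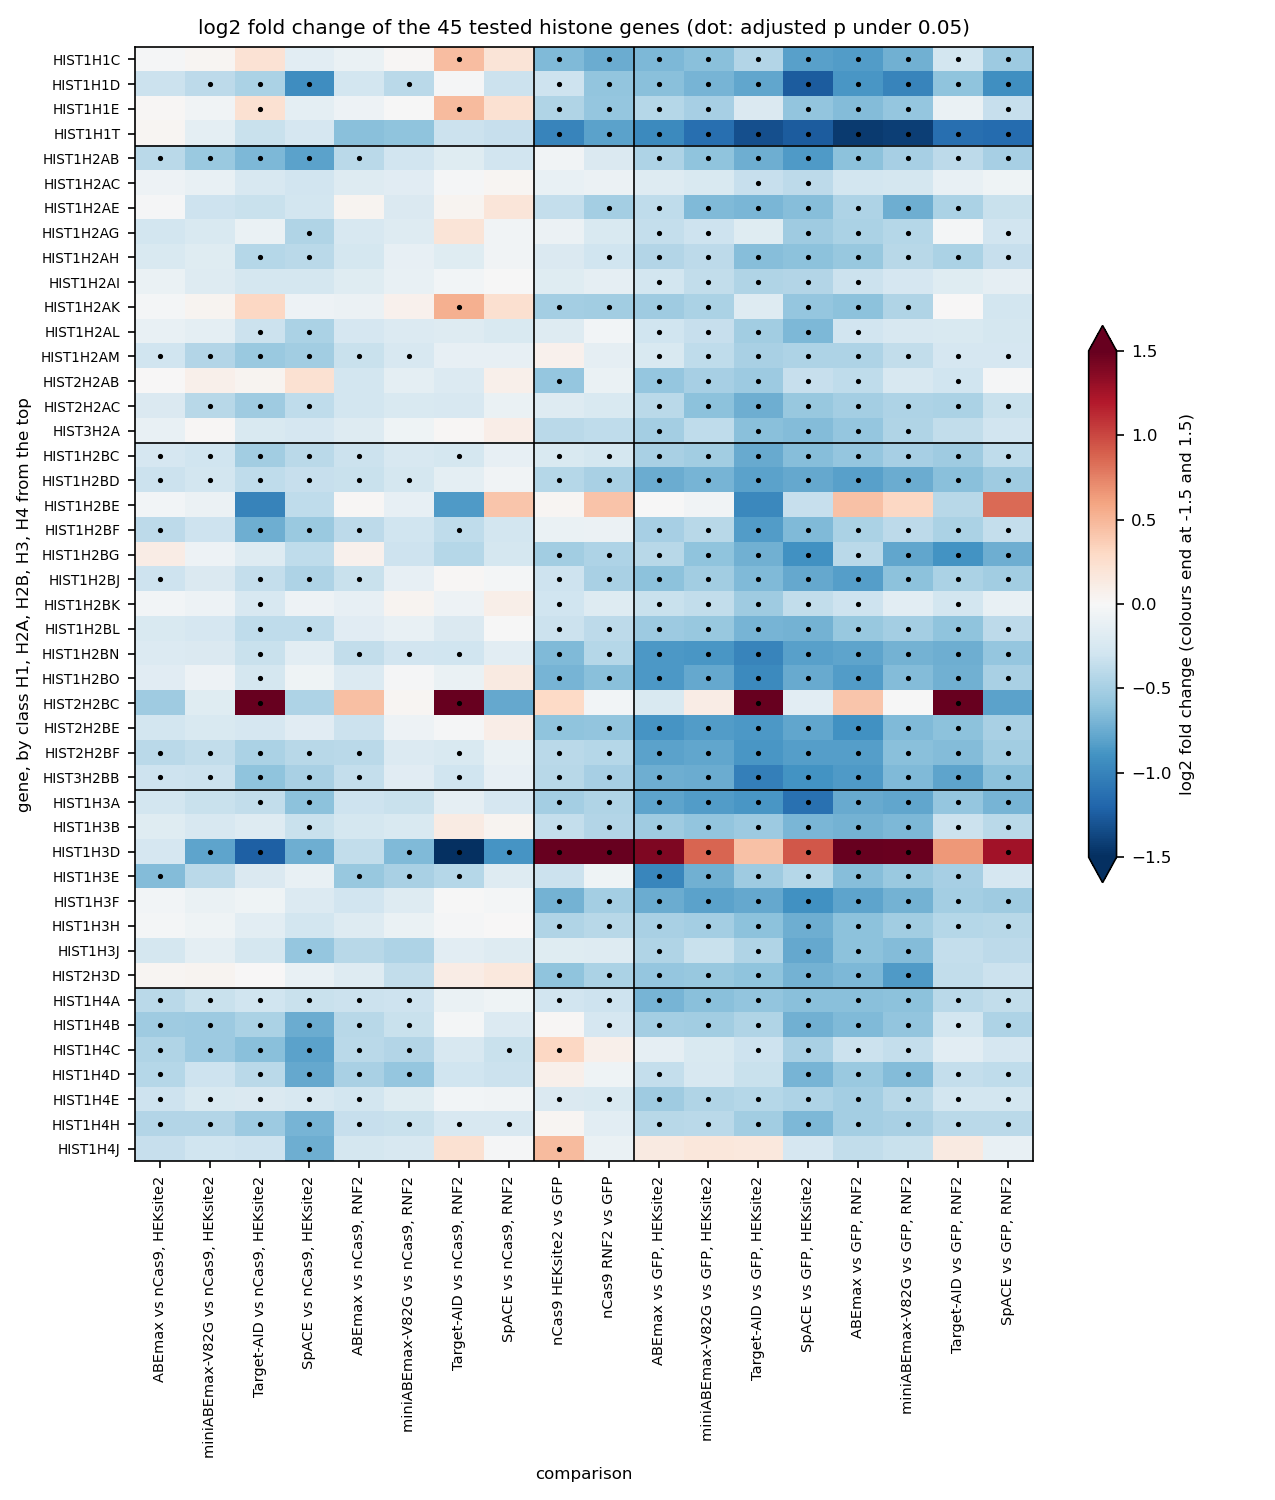
Fitted log2 fold change (colour; scale ends at -1.5 and 1.5) of each of the 45 tested histone genes (rows, ordered H1, H2A, H2B, H3, H4) in 18 comparisons (columns: 8 of an editor with nCas9, 2 of nCas9 with GFP and 8 of an editor with GFP), with a dot where the adjusted p was under 0.05. The H4 rows are blue against nCas9 in most editors and pale in nCas9 against GFP, whereas the H1 rows are blue against GFP. HIST1H3D is red against GFP and blue in the editors against nCas9, and HIST2H2BC is dark red in Target-AID.

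Against GFP, which carried no guide, most tested members were lower in every editor. With HEKsite2 39, 36, 37 and 41 of 45 were called lower in ABEmax, miniABEmax-V82G, Target-AID and SpACE, where 46.8%, 39.8%, 46.4% and 36.6% of all genes were called in either direction and 23.2%, 19.8%, 21.8% and 18.2% lower. With RNF2 40, 36, 31 and 29 were called lower (49.6%, 47.0%, 46.2% and 37.9% of all genes, 24.4%, 23.5%, 21.5% and 19.0% lower). One member was higher in each of the 8, HIST2H2BC in Target-AID and HIST1H3D in the others; of all genes 23.5%, 20.0%, 24.6% and 18.5% were higher with HEKsite2 and 25.2%, 23.5%, 24.6% and 18.9% with RNF2, in the order given. The HIST2H2BC calls follow from the filter on low counts, which it passed through Target-AID alone. Median log2 changes over the 45 were -0.50, -0.52, -0.60 and -0.67 with HEKsite2 and -0.58, -0.52, -0.40 and -0.38 with RNF2. These 8 comparisons share the GFP libraries with each other and with nCas9 against GFP. Without the third GFP library the lower calls numbered 30, 31, 35 and 38 with HEKsite2 and 35, 34, 22 and 23 with RNF2. Leaving out 1 library at a time moved the total of calls between 23 and 42 for Target-AID with RNF2 and between 24 and 30 for SpACE with RNF2.

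Core histone genes of all 3 clusters took part in the falls from GFP. HIST3H2BB, an H2B gene of the small HIST3 cluster (chr1:228458107-228460470, plus strand), was at 186, 194 and 219 CPM in GFP, 141, 156 and 150 CPM in nCas9 with HEKsite2 and 96.1, 92.4 and 105 CPM in Target-AID with HEKsite2. The 3 groups followed each other without overlap, and the log2 change from GFP to Target-AID was -1.03 (SE 0.10, adjusted p = 8.7e-11). HIST2H2BE, an H2B gene of the HIST2 cluster (chr1:149884459-149886652, minus strand), was at 330, 397 and 458 CPM in GFP and 214, 189 and 228 CPM in ABEmax with RNF2 (-0.91, SE 0.11, adjusted p = 5.7e-09). nCas9 with RNF2 lay between them at 227, 295 and 266 CPM, reaching into the ABEmax range. HIST1H2BN, an H2B gene of the HIST1 cluster whose annotated span holds HIST1H2AK and HIST1H2AL, was at 119, 136 and 152 CPM in GFP and 63.5, 67.5 and 74.5 CPM in Target-AID with HEKsite2 (-0.99, SE 0.09, adjusted p = 2.5e-11). HIST1H3A, an H3 gene, was at 150, 186 and 220 CPM in GFP and 70.6, 88.9 and 95.5 CPM in SpACE with HEKsite2 (-1.12, SE 0.11, adjusted p = 3.7e-10). The H2B gene HIST1H2BG, at only 6.97, 7.33 and 7.84 CPM in GFP, was at 3.63, 4.02 and 4.19 CPM in Target-AID with RNF2 (-0.90, SE 0.18, adjusted p = 5.1e-05). In each of these pairs every editor library lay below every GFP library.

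Some abundant members differed from GFP in fewer editors. HIST1H4C was called lower than GFP in 4 of the 8 comparisons, with log2 changes from -0.48 to -0.14, whereas HIST1H4H was called in all 8, from -0.67 to -0.40. HIST1H2AC, an H2A gene that can give polyadenylated mRNA, was called in 2 of the 8 (-0.40 to -0.06); it was at 279, 286 and 344 CPM in GFP, and nCas9 overlapped that range with both guides. HIST1H4D, an H4 gene, was called in 6 (-0.70 to -0.24). It was at 450, 388 and 445 CPM in GFP, 454, 470 and 423 CPM in nCas9 with HEKsite2 and 248, 276 and 265 CPM in SpACE with HEKsite2 (-0.77 against nCas9, SE 0.15, adjusted p = 0.00017). With RNF2 it was at 358, 471 and 398 CPM in nCas9 and 271, 263 and 284 CPM in miniABEmax-V82G (-0.58, adjusted p = 0.0066), again without overlap.

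The balance of H1 to H4 RNA set nCas9 apart. Taken as a ratio within each library, so that scaling between libraries does not enter, summed H1 counts over summed H4 counts were 1.06 to 1.25 in the 6 nCas9 libraries and 1.43 to 1.95 in the 27 others. The 6 Target-AID libraries were at 1.78 to 1.92, the 18 other editor libraries at 1.43 to 1.68 and the 3 GFP libraries at 1.58 to 1.95. No other library reached the nCas9 range. The same held for the leading genes alone, HIST1H1E over HIST1H4C, at 1.45 to 1.80 in nCas9 and 2.06 to 2.97 elsewhere. H1 over all core histone counts was 0.295 to 0.317 in nCas9, 0.339 to 0.379 in the 18 libraries of ABEmax, miniABEmax-V82G and SpACE, 0.371 to 0.401 in GFP and 0.424 to 0.461 in Target-AID. H2B over H2A was 1.39 to 1.52 in GFP and at most 1.34 in the 30 other libraries. These are ratios of counts and not of molecules, they were chosen after the values were seen, and no test was run on them.

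**Figure D3:**
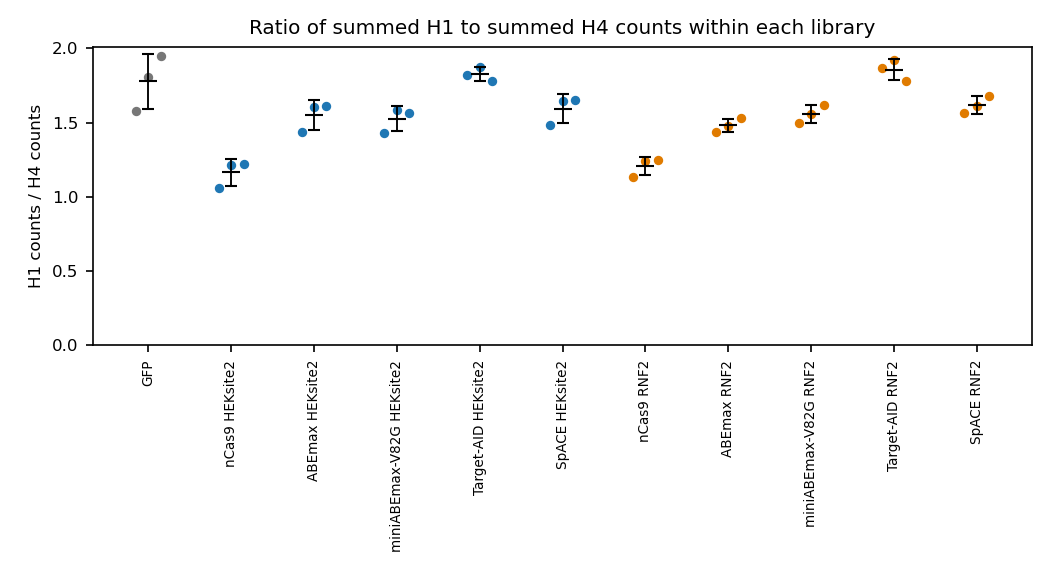
Summed H1 counts divided by summed H4 counts within each of the 33 libraries (points), by group (x axis; grey GFP, blue HEKsite2, orange RNF2), with group mean (long bar) and SD (short bars, n = 3). The 6 nCas9 libraries lie between 1.06 and 1.25, below all 27 other libraries, and the 6 Target-AID libraries lie between 1.78 and 1.92.

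Target-AID was the construct in which 2 of the 4 tested linker histone genes were called higher than in nCas9 with at least 1 guide. The H1 sum was higher with both guides, overlapping nCas9 with HEKsite2, but not every gene of the class rose. HIST1H1D was called lower with HEKsite2, at 162, 162 and 195 CPM against 224, 252 and 245 CPM in nCas9 (log2 change -0.48). The median log2 change of the 4 genes was -0.055 with HEKsite2 and 0.225 with RNF2. HIST1H1E was at 1399, 1552 and 1395 CPM in nCas9 and 1804, 1501 and 1797 CPM in Target-AID with HEKsite2, where 1 Target-AID library lay inside the nCas9 range (log2 change 0.23, SE 0.09, adjusted p = 0.047). With RNF2 it was at 1161, 1493 and 1307 CPM against 1585, 1651 and 2290 CPM, without overlap (0.48, SE 0.09, adjusted p = 0.0001). HIST1H1C rose with RNF2 from 1029, 1352 and 1202 CPM to 1416, 1503 and 2017 CPM (0.46, SE 0.11, adjusted p = 0.00068) and did not pass with HEKsite2 (0.22, adjusted p = 0.098). Without the third Target-AID RNF2 library the changes were 0.29 for HIST1H1E (adjusted p = 0.0040) and 0.29 for HIST1H1C (adjusted p = 0.018). HIST1H2AK was also called higher with RNF2 (0.53, adjusted p = 0.0065), but not without that library (0.18, adjusted p = 0.29), and its annotated transcript overlaps HIST1H2BN on the opposite strand. Relative to GFP the H1 genes of Target-AID were not higher: HIST1H1C was lower with both guides (-0.44 and -0.28, adjusted p = 0.00065 and 0.029), and HIST1H1E did not pass (-0.21 and -0.10, adjusted p = 0.061 and 0.42), although without the third RNF2 library it was lower there too (-0.29, adjusted p = 0.0043). H1F0, a linker histone gene outside the clusters whose mRNA is polyadenylated, had the same order: 126 to 135 CPM in GFP, 81.9 to 92.1 in nCas9 and 113 to 134 in Target-AID (0.42 and 0.62 against nCas9, adjusted p = 3.0e-06 and 2.0e-09).

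A pair of sparsely counted members went against the rest. HIST1H3D, an H3 gene at chr6:26196840-26197250 on the minus strand, was at 2.09, 1.88 and 2.21 CPM in GFP, 5.70, 6.03 and 7.76 CPM in nCas9 with HEKsite2 and 7.89, 8.98 and 10.8 CPM with RNF2. It rose by 1.66 (SE 0.25, adjusted p = 1.8e-06) and 2.15 (SE 0.24, adjusted p = 1.9e-09) on the log2 scale. Target-AID was lower than nCas9, at 2.57, 2.52 and 3.35 CPM with HEKsite2 (-1.23, adjusted p = 8.0e-05) and 1.60, 3.39 and 4.73 CPM with RNF2 (-1.50, adjusted p = 9.0e-07). Levels in ABEmax with RNF2 were 7.11, 7.12 and 7.06 CPM, close to nCas9 (-0.37, adjusted p = 0.23). The whole gene lies inside another annotated gene, AL031777.3, so its reads cannot be assigned to it with certainty. HIST2H2BC, a transcribed H2B pseudogene at chr1:149844498-149850937 on the minus strand that overlaps HIST2H2BD, is described after its values were seen. It was at 5.55, 3.20 and 3.10 CPM in Target-AID with HEKsite2 and 5.23, 3.81 and 2.58 CPM with RNF2, and at most 0.642 CPM in each of the 27 other libraries. It had 24 to 54 counts in the 6 Target-AID libraries and 0 to 5 in the others, so Target-AID alone carried it past the low-count filter. Its calls follow from that filter, and no test is given for it.

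**Figure D4:**
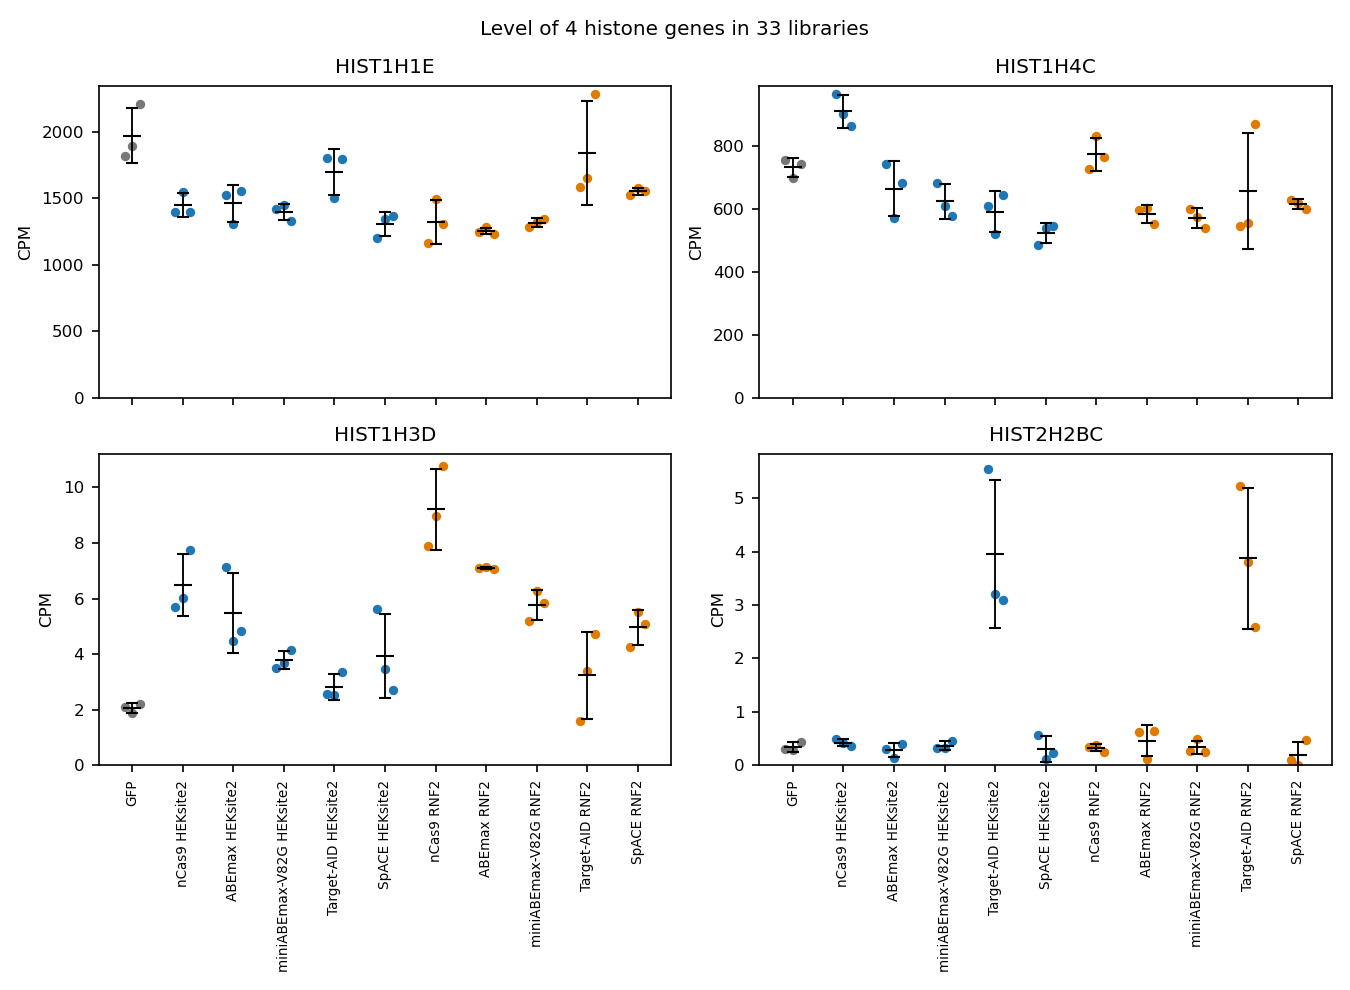
CPM (y axis, from 0) of HIST1H1E, HIST1H4C, HIST1H3D and HIST2H2BC in each of the 33 libraries (points), by group (x axis; grey GFP, blue HEKsite2, orange RNF2), with group mean (long bar) and SD (short bars, n = 3). HIST1H4C is highest in nCas9 with HEKsite2, HIST1H3D has its lowest mean in GFP, and HIST2H2BC exceeds 0.642 CPM in the 6 Target-AID libraries alone.

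HIST1H3E, the one gene among the 32 stem-loops read in which the form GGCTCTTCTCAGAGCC was found, had its largest falls in ABEmax. With HEKsite2 it was at 11.5, 11.4 and 12.5 CPM in nCas9 and 7.44, 7.07 and 7.94 CPM in ABEmax (log2 change -0.65, SE 0.17, adjusted p = 0.0060), and with RNF2 at 13.8, 16.3 and 12.0 CPM against 9.68, 11.4 and 7.32 CPM (-0.57, SE 0.15, adjusted p = 0.011). The groups did not overlap, but the RNF2 call was lost without the second nCas9 library (adjusted p = 0.11) or the third ABEmax library (adjusted p = 0.105). The fall was not particular to ABEmax: HIST1H3E was called lower in 4 of the 8 comparisons of an editor with nCas9, and its log2 change was below 0 in all 8. In miniABEmax-V82G with RNF2 it was at 9.70, 10.7 and 9.59 CPM, called lower without overlap, and 4 fits that left out 1 library lost the call. In SpACE the changes were -0.11 and -0.19, which did not pass (adjusted p = 0.67 and 0.41), and ABEmax and SpACE were not tested against each other.

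Few members were called for the guide by itself. In nCas9 the RNF2 guide differed from HEKsite2 for 1 member, HIST2H2AB, which was higher, where 2.07% of all genes were called and 0.602% were higher. It was at 49.6, 56.5 and 52.8 CPM with HEKsite2 and 69.5, 81.1 and 71.6 CPM with RNF2 (log2 change 0.48, SE 0.12, adjusted p = 0.022), the latter near the 69.6, 76.5 and 91.6 CPM in GFP. The call was lost without nCas9 HEKsite2 library 1 or 3, or RNF2 library 2 or 3. All 7 tested H4 genes were lower in nCas9 with RNF2 than with HEKsite2 (median log2 change -0.185), though 0 were called and the H4 sums overlapped. These nCas9 groups are also the references in the interactions that follow. Whether an editor's difference from nCas9 depended on the guide was tested as an interaction for each editor, and edgeR called 0 of 45 members for ABEmax, miniABEmax-V82G, Target-AID and SpACE, as did DESeq2 (all genes called by edgeR: 0%, 0.0137%, 0.164% and 0.0274%). At an unadjusted p under 0.05 the member counts were 0, 0, 14 and 22, and the share of all genes at that level is not given here. For Target-AID 1 member was called without its RNF2 library 1. In SpACE the interaction was positive for 40 of 45 members, with a median of 0.32 against 0.002 over all genes. It was positive for all 7 H4 genes (median 0.45), which is a smaller fall with RNF2 than with HEKsite2. Without the filter on low counts 7 and 16 members were called for Target-AID and SpACE, and 1 for SpACE when only the groups compared were fitted. The shares of all genes called in those settings are not given here, so these counts have no background beside them. Whether the differences of Target-AID and SpACE depend on the guide thus varies with the filter and, for SpACE, with the groups fitted.

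Genes that act on histone mRNA were called in both directions, in ABEmax and SpACE with HEKsite2 about as often as all genes. Of 29 tested genes for histone gene transcription, 3′ end cutting and decay, 3, 3, 11 and 2 were higher and 2, 4, 5 and 4 lower than nCas9 in ABEmax, miniABEmax-V82G, Target-AID and SpACE with HEKsite2, with medians between -0.04 and 0.06; of all genes 15.9%, 10.3%, 40.6% and 21.0% were called in either direction. With RNF2 4, 4, 10 and 2 were higher, and 1, 4 and 3 were lower in miniABEmax-V82G, Target-AID and SpACE, where 11.2%, 12.6%, 35.2% and 14.7% of all genes were called in the 4 editors. ZNF473, a zinc finger protein of the U7 ribonucleoprotein complex, was higher than nCas9 in all 8 comparisons. It was at 56.1, 56.6 and 56.1 CPM in GFP, 59.5 to 80.0 CPM in the 6 nCas9 libraries and 87.2 to 130 CPM in the 24 editor libraries, so editors and nCas9 did not overlap. Its log2 changes ran from 0.36 (SE 0.08, adjusted p = 0.0031; miniABEmax-V82G with HEKsite2) to 0.90 (SE 0.08, adjusted p = 1.3e-11; Target-AID with RNF2).

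The genes of this list whose values are given each rose in at least 1 comparison and do not stand for the list. Of its 29 genes, 5 and 4 were lower than nCas9 in Target-AID with HEKsite2 and RNF2 (medians 0.055 and 0.035). In SpACE 4 and 3 were lower (medians -0.037 and -0.05). LSM11, a protein of the U7 ribonucleoprotein ring, was at 72.3 to 84.7 CPM in the 6 Target-AID libraries and 46.8 to 62.7 CPM in the other 27. It rose in Target-AID by 0.51 (adjusted p = 9.7e-08) and 0.36 (adjusted p = 3.8e-05). CASP8AP2 (FLASH), which partners LSM11, rose by 0.21 and 0.40 there (adjusted p = 0.0093 and 7.9e-06), and NPAT by 0.20 and 0.24 (adjusted p = 0.012 and 0.0035). SLBP was at 103, 108 and 106 CPM in GFP and 142, 127 and 123 CPM in nCas9 with HEKsite2 (0.31, adjusted p = 0.00026), and at 113, 118 and 105 CPM with RNF2 (0.09, adjusted p = 0.31). Of its 8 comparisons between an editor and nCas9, SLBP passed in Target-AID with RNF2 (0.17, adjusted p = 0.042). ERI1, the exonuclease that trims histone mRNA ends, rose in ABEmax by 0.57 and 0.53 (adjusted p = 0.00099 and 0.0023).

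Genes of S phase, when histone mRNA is normally made, were mostly higher in nCas9 than in GFP. In nCas9 against GFP, 24 of 40 S phase genes were higher and 3 lower with HEKsite2, and 22 were higher and 5 lower with RNF2, with medians of 0.25 and 0.18 against 0.00 and 0.01 over all genes. Of all genes 19.6% were higher and 18.8% lower with HEKsite2, and 21.0% and 20.5% with RNF2. Outside this list, E2F1, a transcription factor for entry into S phase, rose by 1.13 and 1.27 (adjusted p = 2.0e-17 and 6.6e-19). CCNE1, the cyclin that switches on NPAT, rose by 0.75 and 0.91 (adjusted p = 5.0e-09 and 2.4e-11). Both belong to the list of genes that act on histone mRNA and do not stand for it. Of its 29 tested genes, 9 were higher and 6 lower with HEKsite2 and 7 higher and 6 lower with RNF2 (medians 0.036 and 0.061). Genes of G2 and mitosis went the other way from those of S phase, with 32 of 40 lower and 1 higher with HEKsite2 (median -0.41) and 30 lower and 1 higher with RNF2 (median -0.37). Against nCas9 the editors had 4 to 14 S phase genes higher and 1 to 10 lower, where 10.3% to 40.6% of all genes were called in either direction. CDC45, one of the S phase genes, was at 995 to 1440 CPM in Target-AID and at most 178 CPM elsewhere. The part of these cell cycle genes in the histone differences was not tested.

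**Figure D5:**
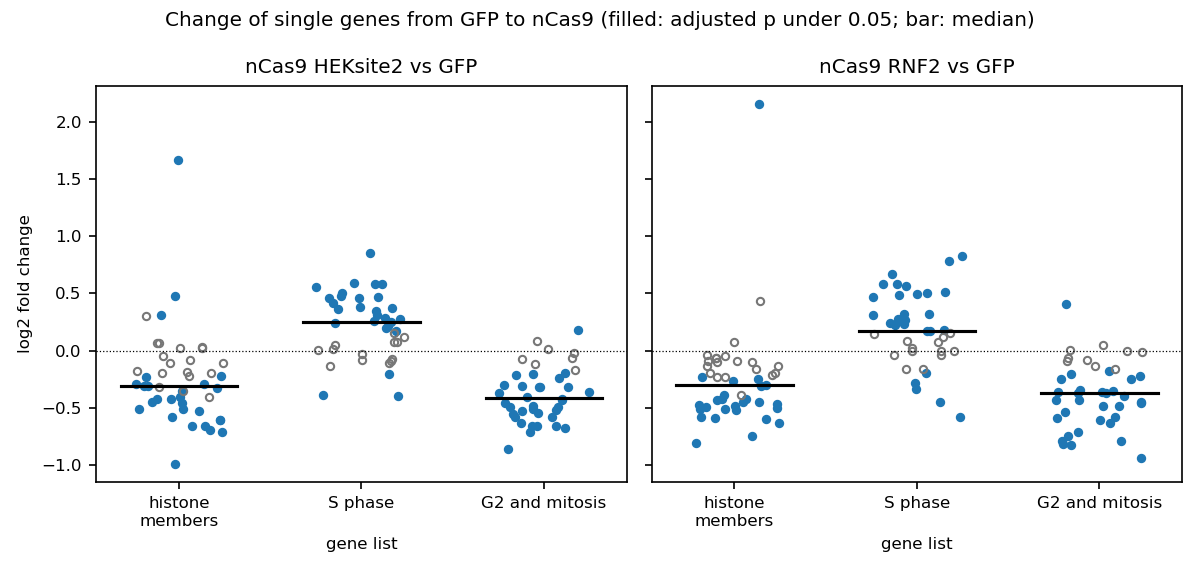
Log2 fold change (y axis) of each tested gene from GFP to nCas9 with the HEKsite2 guide (left) and the RNF2 guide (right), for the 45 histone genes and the lists of 40 S phase genes and 40 G2 and mitosis genes; filled points had an adjusted p under 0.05 and the bar is the median of the list. The histone and mitotic medians lie below 0 and the S phase median above it.

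Among histone genes outside the rule, 11 were tested, mostly variants made throughout the cell cycle. Of these 6 were lower and 1 higher in nCas9 with HEKsite2 than in GFP and 4 lower and 1 higher with RNF2, where 38.4% and 41.5% of all genes were called in either direction (18.8% and 20.5% lower). HIST4H4, a replication-dependent H4 gene outside the named clusters, fell by 0.51 and 0.56 (adjusted p = 3.4e-05 and 8.6e-06). Of the 6 members that also give polyadenylated mRNA, 5 and 4 were lower in nCas9 than in GFP (medians -0.36 and -0.37), and 2, 2, 3 and 2 were lower in the 4 editors with HEKsite2 than in nCas9 (medians -0.17 to -0.24; 7.55%, 5.32%, 19.1% and 10.2% of all genes lower). Of 22 histone chaperones and importers, 7 were higher and 5 lower in nCas9 with HEKsite2 and 5 higher and 6 lower with RNF2, against 19.6% of all genes higher and 18.8% lower with HEKsite2 and 21.0% and 20.5% with RNF2. ASF1B, which hands H3 and H4 to the assembly factors, rose by 0.58 and 0.59 (adjusted p = 1.3e-09 and 6.0e-10) and was lower than nCas9 in Target-AID by 0.49 and 0.36 on the log2 scale (adjusted p = 3.9e-08 and 1.4e-05).

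Markers of other cell types moved with the groups at low levels. A list of 6 fibroblast or mesenchymal markers summed to 20.6 to 27.5 CPM in GFP and 10.3 to 18.8 CPM in the other 30 libraries, with at most 2 of its genes at 0 in a group. The 6 liver markers summed to 1.93 to 3.39 CPM in Target-AID and at most 0.920 CPM elsewhere, with 1 to 4 of the 6 at 0 in each group. The part of these markers in the histone differences was not tested.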

How the data were processed

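RNA sequencing of 33 HEK293T libraries in 11 groups was analysed from the table of whole-number read counts per gene that the authors deposited. Per the submitters' processing notes, STAR, GATK 3.8.1, Picard 2.7 and GRCh38 were used; for the counting tool, its strand setting and the gene annotation the sources used here name nothing, so reads of overlapping genes cannot be told apart. Every column matched 1 sample (0 columns were left over); the columns matched to SpACE carry UGI in their names, which the sample titles do not, and were matched by construct, guide and replicate number. No 2 replicates agreed within sampling noise (the lowest chi-square per degree of freedom was 1.40).

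Counts were tested with edgeR 4.0.16 in R 4.3.3: TMM scaling, filterByExpr on the groups (14613 of 26475 genes kept), 1 mean per group over all 33 libraries (22 residual degrees of freedom) and the two-sided quasi-likelihood F-test. P-values were adjusted by Benjamini-Hochberg over all tested genes within each comparison, and a gene was called at an adjusted p under 0.05. The 15 main comparisons were 4 editors against nCas9 with each of 2 guides, nCas9 against GFP with each guide, the guides in nCas9 and 4 editor-by-guide interactions. The 8 comparisons of editors with GFP were added after seeing the data. SE was taken as the log2 fold change divided by the square root of F. CPM used TMM-scaled library sizes, and class sums are sums over all members. The steps were tested on simulated data.

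The members and gene lists were chosen with earlier results of these data known. Genes were named by rule: in each class the member with the highest mean CPM; in each comparison the 4 largest falls and rises among called members whose mean log2 CPM reached 1 and whose groups did not overlap; members called in an interaction; and genes of the lists where a sentence turns on them. Other members named for a contrast (such as HIST1H2AK, HIST1H4J, HIST1H1T and HIST2H2BC) were chosen after their values were seen. Gene positions and transcripts came from GENCODE 29 and promoters from RefSeq (GRCh38.p14), matched by name or synonym. Uniqueness was the share of 50-base windows found in another gene's transcript. Alternatives were DESeq2 1.42.0, its size factors, total-count scaling, no filter, fitting only the groups compared, a replicate block, GFP in place of nCas9 and leaving out each library. With 3 libraries a group, spread rather than depth limits the precision of well-counted members, whereas members under about 1 CPM rest on few counts.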

Additional observations from a re-analysis of the deposited data

How the results depend on the processing

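With DESeq2's size factors the median log2 change of all genes lay within 0.011 of 0. With total-count scaling it reached 0.138 in comparisons with GFP (0.010 there with TMM), where the histone medians moved up with it and the lower calls of nCas9 against GFP numbered 20 (HEKsite2) and 18 (RNF2). Without the filter on low counts, the members called were 26 and 23 for ABEmax and miniABEmax-V82G with HEKsite2, 28, 20, 20 and 13 for ABEmax, miniABEmax-V82G, Target-AID and SpACE with RNF2, 5 for the guide in nCas9, and 7 and 16 for the Target-AID and SpACE interactions. When only the groups compared were fitted, the counts were 22 for miniABEmax-V82G with HEKsite2, 28, 23, 4 and 11 for the 4 editors with RNF2, 4 for the guide and 1 for the SpACE interaction. With GFP in place of nCas9 they were 40, 37 and 42 for ABEmax, miniABEmax-V82G and SpACE with HEKsite2 and 41, 37, 32 and 30 for the 4 editors with RNF2. The shares of all genes called without the filter or with only the groups compared are not given here. The cause of these moves was not tested.

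Leaving out 1 library at a time gave 6 to 16, 8 to 12, 18 to 27 and 20 to 25 members called for ABEmax, miniABEmax-V82G, Target-AID and SpACE with HEKsite2, and 1 to 20, 1 to 15, 6 to 30 and 1 to 3 with RNF2. It gave 16 to 29 and 17 to 29 for nCas9 against GFP, 0 to 1 for the guide and 0 to 1 for the Target-AID interaction. Deviations of same-numbered libraries had a median correlation of 0.02 over 165 pairs, against -0.01 over 330 others. A correlation above 0.1 was found in 24 of the 165 pairs and in 15 of the 330 others. Some same-numbered libraries may thus share a deviation, and whether the numbers pair them is not settled. With a replicate block the counts were 19, 16, 30 and 28 with HEKsite2, 21, 14, 13 and 4 with RNF2, 29 and 30 for nCas9 against GFP, 2 for the guide and 0 for the interactions.

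Of the 42 differences named by rule in the main comparisons, all kept their direction and call under both other scalings, without the filter, with only the groups compared and with the block. DESeq2 lost 4, and 37 of 252 fits that left out 1 library lost the call. With GFP in place of nCas9, 7 changed sign: HIST1H3D became 0.87 and 0.44 with HEKsite2 (miniABEmax-V82G and Target-AID) and 1.49, 0.65 and 1.26 with RNF2 (miniABEmax-V82G, Target-AID and SpACE), and HIST1H1E and HIST1H1C became -0.10 and -0.28 in Target-AID with RNF2.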
